A study of Saccharomyces cerevisiae with 16 samples.

Results

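The genes described here are HXT1 to HXT7, which encode hexose transporters, and SNF3 and RGT2, which encode the glucose sensors of budding yeast. They were chosen by name, and their systematic names are YHR094C (HXT1), YMR011W (HXT2), YDR345C (HXT3), YHR092C (HXT4), YHR096C (HXT5), YDR343C (HXT6), YDR342C (HXT7), YDL194W (SNF3) and YDL138W (RGT2). They are 9 of the 7126 features in the count table. All 9 passed the filter on low counts, and their counts ranged from 39 to 14694 per library with no 0 in any library. RNA-seq was used to follow the response of Saccharomyces cerevisiae to CaCl2, a stress that activates the phosphatase calcineurin (CN), with and without the CN inhibitor FK506. Each of the 16 libraries came from crz1∆ hog1∆ cells, taken here to be strain YJB622, a MATa haploid of the BY4741 background. The sample titles give crz1hog1, and the study lists other strains that also lack both genes. The listed genotype of YJB622 is ura3∆0, leu2∆0, his3∆0 and met15∆0, with crz1∆::KanMx, hog1∆::LEU2 and a tagged Hcm1-3HA-HIS3 allele. The controls therefore lacked the same genes as the treated cells, namely CRZ1, the CN-regulated transcription factor, and HOG1, the stress-activated MAP kinase. No strain that kept both genes was compared here. Cells grew in synthetic medium with dextrose and ammonium chloride and received ET buffer alone, the control, or 1 μg/ml FK506 in that buffer. After 15 min of pre-treatment, 200 mM CaCl2 was added, and cells were collected at 0, 10, 30 and 60 min. Duplicate time courses of each pre-treatment gave 8 groups of 2 libraries. The study's methods describe the duplicates as biological replicates, whereas the labels give only a replicate number.

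Yeast takes up glucose by facilitated diffusion through transporters of the HXT family, which differ in their affinity for the sugar. HXT1 and HXT3 encode low-affinity transporters used when glucose is plentiful, HXT2, HXT4, HXT6 and HXT7 encode transporters of higher affinity used when it is scarce, and HXT5 encodes a transporter of intermediate affinity made in slowly growing or starved cells. Snf3 and Rgt2 resemble the transporters but carry long cytoplasmic tails and act as sensors, Snf3 of low and Rgt2 of high glucose. Signalling from them leads through the casein kinases Yck1 and Yck2 and the ubiquitin ligase subunit Grr1 to the loss of Mth1 and Std1, without which the repressor Rgt1 leaves HXT promoters. In a separate branch, the repressor Mig1, which the kinase Snf1 controls, lowers expression of several high-affinity transporters when glucose is high.

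HXT6 and HXT7 are shown first, because how their reads were assigned limits what can be said of either. Both coding sequences are 1713 bases long and lie on the minus strand of chromosome IV, and they differ at 3 bases. Counted from 1 at the A of the start codon, with the HXT6 base first, these are T1632C, G1666A and T1677C, of which G1666A changes a residue (A556T) and the others do not. The stretches that hold the differing bases, in capitals, are printed 5′ to 3′ along the coding strand from the RefSeq R64 sequence. They cover positions 1612 to 1672 (HXT6 chrIV:1159649-1159709, HXT7 chrIV:1154257-1154317) and 1657 to 1713 (HXT6 chrIV:1159608-1159664, HXT7 chrIV:1154216-1154272).
HXT6: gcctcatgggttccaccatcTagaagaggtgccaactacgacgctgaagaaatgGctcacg
HXT7: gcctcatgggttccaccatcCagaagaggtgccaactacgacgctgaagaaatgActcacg
HXT6: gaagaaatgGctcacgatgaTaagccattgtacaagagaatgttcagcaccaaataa
HXT7: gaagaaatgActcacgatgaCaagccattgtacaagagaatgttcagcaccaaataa
Of the 1664 windows of 50 bases in either gene, 82 (4.93%) occurred nowhere else in the genome, all of them over this end of the gene. The other 7 members had between 85.1% (HXT3) and 100% (HXT2, SNF3 and RGT2) of such windows unique. Each member is a single exon and overlapped no other annotated feature. HXT6 and HXT7 are therefore given separately and as a sum, and a value of either alone is uncertain.

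The 1000 bases upstream of each start codon were searched on both strands for letters bound by regulators of these genes, in 6015 genes of the RefSeq R64 annotation and without trimming at neighbouring genes. The letters CGGANNA, a form of the Rgt1 site, occurred 9 times before HXT3, 8 times before HXT1, 4 times before HXT5, 3 times each before HXT2, HXT4 and HXT6, 2 times before HXT7, and not before SNF3 or RGT2. At least 1 match was present in 66.4% of all windows, whereas 0.0333% held as many as HXT1 and 0.0166% as many as HXT3. The stress response element AGGGG occurred 5 times before HXT6, 4 times before HXT7, 2 times before HXT5, 1 time each before HXT1, HXT3, HXT4 and RGT2, and not before HXT2 or SNF3. It was present in 54.9% of all windows. Forms of the Mig1 site (GCGGGG or GTGGGG, and also CCGGGG or CTGGGG) occurred 4 times each before HXT2 and HXT4, 3 times before HXT6, 2 times each before HXT1, HXT3, HXT7 and SNF3, 1 time before HXT5 and not before RGT2, and 41.8% of all windows held 1 or more. The Mig1 and stress element letters can share a run of G. A match describes the sequence and is not evidence of binding.

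The 300-base windows with the most matches are printed for the low-affinity genes HXT3 and HXT1, which have more Rgt1 letters than the other members, and for HXT6, which has the most matches to the stress element, and HXT5, which has the most outside HXT6 and HXT7. Capitals mark CGGANNA or its reverse complement in the HXT3 and HXT1 windows, and AGGGG or its reverse complement in the HXT6 and HXT5 windows. The windows are HXT3 (chrIV:1164899-1165198, minus strand, -538 to -239 from the start codon), HXT1 (chrVIII:292810-293109, minus strand, -484 to -185 from the start codon), HXT6 (chrIV:1161791-1162090, minus strand, -770 to -471 from the start codon) and HXT5 (chrVIII:296620-296919, minus strand, -472 to -173 from the start codon).
HXT3: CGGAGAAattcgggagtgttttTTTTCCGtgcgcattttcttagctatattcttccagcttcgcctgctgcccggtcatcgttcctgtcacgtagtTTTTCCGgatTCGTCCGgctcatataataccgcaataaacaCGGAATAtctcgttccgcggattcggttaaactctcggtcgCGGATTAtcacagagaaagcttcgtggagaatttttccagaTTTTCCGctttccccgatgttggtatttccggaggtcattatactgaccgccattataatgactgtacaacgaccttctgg
HXT1: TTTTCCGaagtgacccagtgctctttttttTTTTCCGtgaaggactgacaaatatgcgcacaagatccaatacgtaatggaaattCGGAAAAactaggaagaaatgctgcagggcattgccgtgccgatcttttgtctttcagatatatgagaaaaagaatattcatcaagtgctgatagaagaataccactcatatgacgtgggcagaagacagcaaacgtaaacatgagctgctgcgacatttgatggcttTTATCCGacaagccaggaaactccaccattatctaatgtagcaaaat
HXT6: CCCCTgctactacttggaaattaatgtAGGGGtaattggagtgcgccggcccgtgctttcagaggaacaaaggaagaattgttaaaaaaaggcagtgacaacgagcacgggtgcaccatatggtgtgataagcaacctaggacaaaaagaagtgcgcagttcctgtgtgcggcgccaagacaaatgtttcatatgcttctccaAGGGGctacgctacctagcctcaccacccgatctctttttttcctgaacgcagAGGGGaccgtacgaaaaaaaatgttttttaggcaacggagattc
HXT5: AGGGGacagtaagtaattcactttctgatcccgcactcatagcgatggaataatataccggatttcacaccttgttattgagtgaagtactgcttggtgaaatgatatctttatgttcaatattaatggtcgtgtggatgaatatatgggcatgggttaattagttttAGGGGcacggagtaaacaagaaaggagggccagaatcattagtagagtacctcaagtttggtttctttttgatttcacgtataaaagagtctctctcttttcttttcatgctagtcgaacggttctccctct
These windows hold 7 of the 9 matches of HXT3, 4 of the 8 of HXT1, 4 of the 5 of HXT6 and both of HXT5. As many stress element matches as in HXT6 were found in 0.632% of all windows, and as many as in HXT5 in 21.0%. Of the members that rose at 10 min, HXT2 and SNF3 have no match, and HXT1, HXT4, HXT5, HXT6 and HXT7 have 1 to 5. HXT3 and RGT2, which were not called then, have 1 each. Whether the element took part in the rise was not tested.

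Total counts per library ranged from 11221758 to 11970166, so that 3 counts, the most that a count of 0 allows, equal at most 0.267 CPM. HOG1, URA3 and MET17 (the gene of met15∆0) had 0 counts in the 16 libraries and CRZ1 had 2 in all, as the genotype states. The a-cell genes MFA1, MFA2, STE2 and BAR1 had 930 to 18121 counts per library, and the alpha-cell genes MF(ALPHA)1, MF(ALPHA)2 and STE3 had 19 to 574, which is low but not 0. Replicates of a group differed by more than sampling noise (chi-square per degree of freedom of 5.97 to 12.8), so none was counted as a repeat of another. Levels are given as scaled CPM, which are counts per 1e6 of the library total after TMM scaling. In these bulk samples, fewer cells with a transcript and less of it per cell cannot be told apart.

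Before CaCl2, HXT3 was the most abundant per kb of coding length and HXT5 the least among the 7 members other than HXT6 and HXT7. In ET at 0 min, scaled CPM per kb stood at 556 and 463 for HXT3 in the 2 libraries, 158 and 142 for HXT2 and 164 and 129 for HXT4. Below these came RGT2 (22.5 and 22.3), HXT1 (17.7 and 15.1), SNF3 (9.85 and 8.38) and HXT5 (5.11 and 5.78). The libraries of HXT2 and HXT4 overlapped, and no other neighbours in this order did. In FK506 at 0 min, HXT4 (190.2 and 157) stood above HXT2 (144 and 137) without overlap, and the order was otherwise the same. HXT7 (87.7 and 72.7 in ET) and HXT6 (2.20 and 2.11) were given no place in this order. With 4.93% of their windows unique, their levels per kb are too low by up to about the inverse of that share if shared reads were left out of the counts, which the sources used here do not say. Shared reads counted at both genes, or divided evenly, would add equally to each. HXT6 held 2.44% to 8.95% of the scaled CPM of the pair. How shared reads were counted was not tested.

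**Figure D1:**
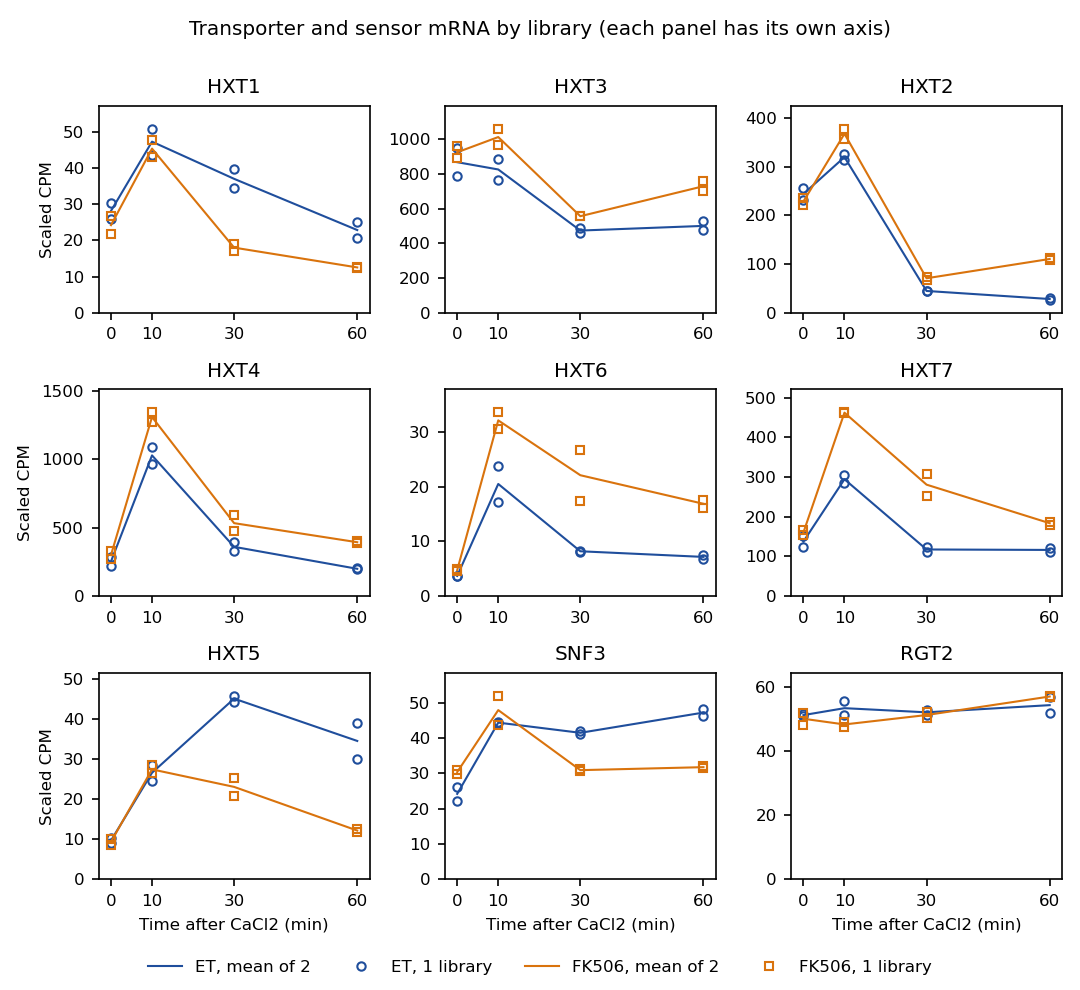
Scaled CPM (vertical axes, each from 0) of the 9 genes against minutes after CaCl2, with ET libraries as circles, FK506 libraries as squares and lines through the means of 2 libraries. HXT4, HXT6 and HXT7 peak at 10 min in both pre-treatments, HXT2 is lowest at 60 min in ET (25.6 and 30.4), and RGT2 lies between 47.5 and 57.4 in the 16 libraries.

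Genes were called changed at a Benjamini-Hochberg adjusted p under 0.05 over the 6206 genes tested with limma voom. At 10 min, 7 of the 9 members were higher than at 0 min and none was lower in ET, where 58.5% of all genes tested were called, and the same counts were found in FK506, where 54.6% were called. The members' median log2 change was 0.88 in ET and 0.91 in FK506, against -0.03 for all genes in each. The 7 members were the same in both: HXT1, HXT2, HXT4, HXT5, HXT6, HXT7 and SNF3. At 30 min against 0 min, 5 members were higher and 2 lower in ET (68.4% of all genes called), and 4 were higher and 3 lower in FK506 (52.0% called). By 60 min, 3 members were higher than at 0 min and 5 lower in ET (68.3% called), and 2 were higher and 3 lower in FK506 (28.8% called).

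From 10 to 30 min, 6 members fell and 1 rose in ET (40.3% of all genes called), whereas 7 fell and none rose in FK506 (36.8% called). The member that rose in ET was HXT5. From 30 to 60 min, 4 members fell in ET and none rose (20.5% called), and 4 fell and 2 rose in FK506 (40.8% called). The 2 that rose were HXT2 and HXT3. At 0 min, before CaCl2 but after pre-treatment, no member differed between ET and FK506, with 1.56% of all genes called. Adjusted p there ranged from 0.11 (HXT4) to 0.93 (HXT5), and 3 members (HXT4, HXT7 and SNF3, all lower in ET) had an unadjusted p under 0.05. The edgeR and DESeq2 tests also called no member at 0 min.

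**Figure D2:**
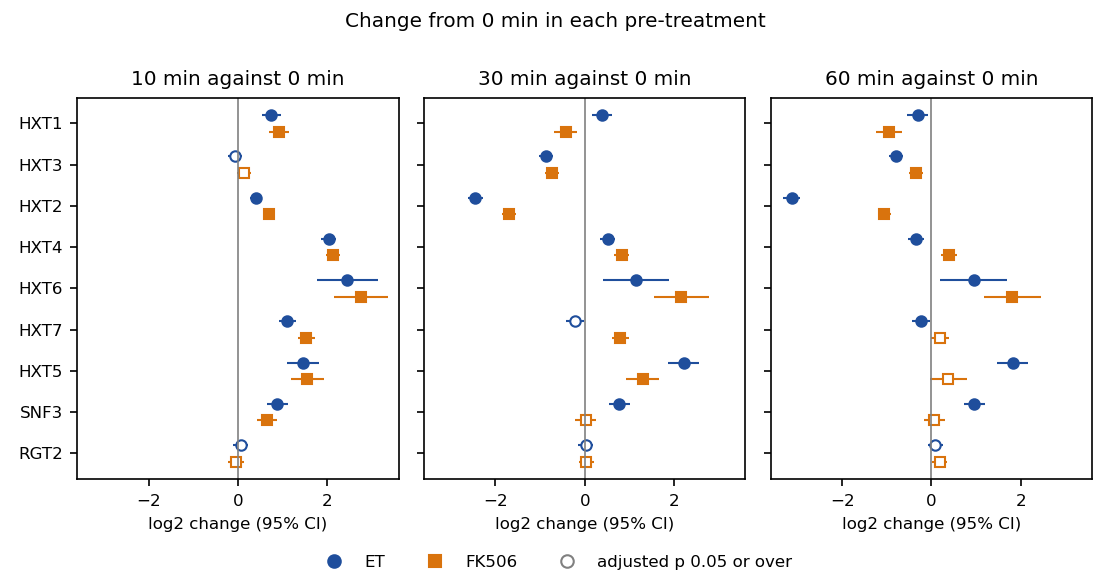
Log2 change from 0 min (horizontal axis) with its 95% confidence interval for each gene at 10, 30 and 60 min, in ET (circles) and FK506 (squares), with open symbols for an adjusted p of 0.05 or over. At 10 min no member lies below 0 with a filled symbol, and at 60 min HXT2 in ET lies furthest to the left at -3.12.

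To ask which of these changes differed when CN was inhibited, the change from 0 min was compared between pre-treatments as ET minus FK506. At 10 min no member differed (0.0806% of all genes called, 5 genes), 2 members (HXT2 and HXT7) had an unadjusted p under 0.05, and neither edgeR nor DESeq2 called any. At 30 min 3 members changed more upward in ET (HXT1, HXT5 and SNF3) and 3 more downward (HXT2, HXT4 and HXT7), with 31.7% of all genes called. At 60 min the same 3 members were again higher and 4 were lower (HXT2, HXT3, HXT4 and HXT7), with 51.9% of all genes called. HXT6 and RGT2 were not called in either direction at any time. The share of members called is above the background at 30 min (6 of 9) and at 60 min (7 of 9), but with 9 genes chosen by name this is a description and no test of the group.

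**Figure D3:**
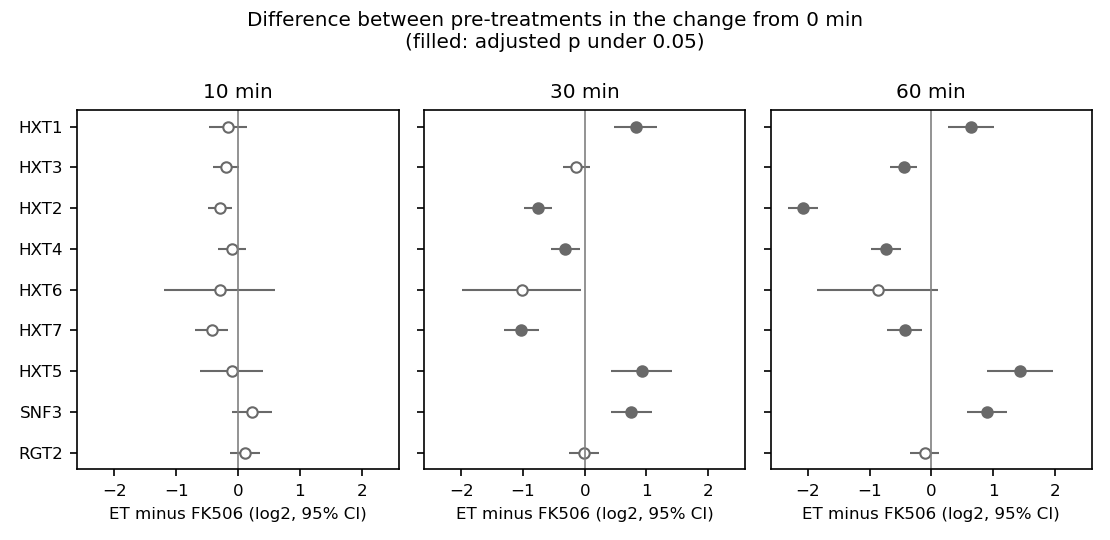
Difference between ET and FK506 in the log2 change from 0 min (horizontal axis, ET minus FK506) with its 95% confidence interval for each gene at 10, 30 and 60 min, with filled symbols for an adjusted p under 0.05. HXT1, HXT5 and SNF3 lie to the right of 0 at 30 and 60 min, HXT2, HXT4 and HXT7 lie to the left, and RGT2 stays near 0.

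HXT1, the low-affinity transporter induced most strongly by high glucose, rose at 10 min in both pre-treatments and then fell in both, further in FK506. In ET, HXT1 stood at 30.4 and 25.9 at 0 min, 50.9 and 43.8 at 10 min, 39.7 and 34.4 at 30 min, then 25.0 and 20.7 at 60 min (scaled CPM). In FK506, HXT1 stood at 26.6 and 21.8 at 0 min, 47.8 and 43.0 at 10 min, 17.1 and 18.9 at 30 min, then 12.7 and 12.4 at 60 min. The ET and FK506 libraries overlapped at 0 and 10 min and were separate at 30 and 60 min, with ET higher. The log2 change at 10 min was 0.75 ± 0.10 (SE, adjusted p = 7.3e-06) in ET and 0.91 ± 0.11 (SE, adjusted p = 1.6e-06) in FK506 by limma. At 30 min HXT1 was still above its 0 min level in ET, by 0.39 ± 0.10 (SE, adjusted p = 0.0029), and below it in FK506, at -0.43 ± 0.12 (SE, adjusted p = 0.0074). At 60 min the FK506 level was 0.518 of that at 0 min (-0.95 ± 0.14 (SE, adjusted p = 3.3e-05)), and the ET level was 0.811 of it (-0.30 ± 0.11 (SE, adjusted p = 0.025)). The difference between pre-treatments was 0.82 ± 0.16 (SE, 95% interval 0.48 to 1.16, adjusted p = 0.001) at 30 min and 0.65 ± 0.18 (0.27 to 1.02, adjusted p = 0.0051) at 60 min. The decrease in ET at 60 min lost its call in 5 of the 16 fits with 1 library left out (ET replicate 1 at 0 min, either ET replicate at 30 min, ET replicate 2 at 60 min, or FK506 replicate 2 at 60 min), with values of -0.26 to -0.23 and limma adjusted p of 0.051 to 0.16. The decrease in FK506 at 30 min lost its call without FK506 replicate 1 at 30 min, at -0.23 (adjusted p = 0.17) by limma, and with raw library totals, at -0.23 (adjusted p = 0.13).

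HXT3, a low-affinity transporter expressed over a wide range of glucose, did not pass the test at 10 min and was lower at 30 and 60 min. In ET, HXT3 stood at 947 and 789 at 0 min, 889 and 764 at 10 min, 486 and 462 at 30 min, then 475 and 526 at 60 min (scaled CPM). In FK506, HXT3 stood at 961 and 890.1 at 0 min, 1061 and 966 at 10 min, 556 and 558 at 30 min, then 760.1 and 699 at 60 min. Levels at 30 and 60 min were below both 0 min libraries in each pre-treatment, and at 60 min both FK506 libraries were above both ET libraries. The log2 change at 10 min was -0.07 ± 0.07 (SE, adjusted p = 0.42) in ET and 0.13 ± 0.07 (SE, adjusted p = 0.13) in FK506 by limma. The latter passed the threshold without ET replicate 1 at 60 min, at 0.16 (adjusted p = 0.025) by limma. At 30 min HXT3 had fallen to 0.547 of its 0 min level in ET (-0.87 ± 0.07 (SE, adjusted p = 9.9e-09)) and to 0.602 in FK506 (-0.73 ± 0.07 (SE, adjusted p = 1.6e-07)). From 30 to 60 min it rose in FK506, by 0.39 ± 0.07 (SE, adjusted p = 0.00032), and the ET value was 0.08 ± 0.07 (SE, adjusted p = 0.51). The difference in the change from 0 min was -0.14 ± 0.10 (SE, adjusted p = 0.34) at 30 min, with an interval of -0.35 to 0.08, and -0.45 ± 0.10 (SE, adjusted p = 0.0013) at 60 min.

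HXT2, a high-affinity transporter induced by low glucose, showed the largest decrease among the members and the largest difference between pre-treatments. In ET, HXT2 stood at 257 and 231 at 0 min, 325 and 314 at 10 min, 45.0 and 44.1 at 30 min, then 25.6 and 30.4 at 60 min (scaled CPM). In FK506, HXT2 stood at 235 and 222 at 0 min, 378 and 358 at 10 min, 74.3 and 67.1 at 30 min, then 108 and 113 at 60 min. Levels at 30 and 60 min lay below every 0 min library in each pre-treatment, and FK506 was the higher of the pre-treatments at both times without overlap. A small rise came first, of 0.39 ± 0.06 (SE, adjusted p = 4.9e-05) in ET and 0.69 ± 0.06 (SE, adjusted p = 1.1e-07) in FK506 at 10 min by limma. From 10 to 30 min HXT2 fell to 0.14 of its level in ET (-2.84 ± 0.08 (SE, adjusted p = 2.9e-13)) and to 0.192 in FK506 (-2.38 ± 0.07 (SE, adjusted p = 8.5e-13)). The pre-treatments then moved in opposite directions. Between 30 and 60 min HXT2 fell further in ET, with a log2 change of -0.67 ± 0.10 (SE, adjusted p = 0.0001), and rose in FK506, by 0.64 ± 0.08 (SE, adjusted p = 2.5e-06). At 60 min it stood at 0.115 of its 0 min level in ET (-3.12 ± 0.09 (SE, adjusted p = 3.5e-15)) and at 0.483 in FK506 (-1.05 ± 0.07 (SE, adjusted p = 2.3e-09)). The difference in the change from 0 min widened from -0.75 ± 0.11 (SE, adjusted p = 8.8e-05) at 30 min to -2.07 ± 0.11 (SE, adjusted p = 9.6e-11) at 60 min, and each was called in the 16 fits with 1 library left out.

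HXT4, a transporter of fairly high affinity whose gene lies beside HXT1 on chromosome VIII, had a large and short-lived increase. In ET, HXT4 stood at 283 and 223 at 0 min, 1090.2 and 969.8 at 10 min, 393 and 328 at 30 min, then 195 and 204 at 60 min (scaled CPM). In FK506, HXT4 stood at 329 and 272 at 0 min, 1346 and 1276 at 10 min, 591 and 477 at 30 min, then 400.4 and 388 at 60 min. All 4 libraries at 10 min lay above every other library of HXT4, and at 10, 30 and 60 min both FK506 libraries were above both ET libraries. The increase at 10 min was 4.09-fold in ET (2.03 ± 0.08 (SE, adjusted p = 1.1e-11) on the log2 scale) and 4.37-fold in FK506 (2.13 ± 0.08 (SE, adjusted p = 7.0e-12)) by limma. By 60 min HXT4 was below its 0 min level in ET (-0.34 ± 0.08 (SE, adjusted p = 0.0018)) and above it in FK506 (0.40 ± 0.08 (SE, adjusted p = 0.0011)). The decrease in ET lost its call without ET replicate 1 at 60 min, at -0.18 (adjusted p = 0.11) by limma. The difference in the change from 0 min was -0.73 ± 0.12 (SE, adjusted p = 4.3e-05) at 60 min. The smaller difference at 30 min, -0.31 ± 0.11 (SE, adjusted p = 0.044), lost its call in 8 of the 16 fits with 1 library left out, with values of -0.34 to -0.23 and limma adjusted p of 0.055 to 0.21. Those libraries were ET replicate 1 at 0 min, each ET replicate at 10 and 30 min, FK506 replicate 2 at 0 min, FK506 replicate 1 at 30 min and FK506 replicate 2 at 60 min. It also lost its call in the fit without replicate number as a block, at -0.31 (adjusted p = 0.15) by limma, with raw library totals (adjusted p = 0.055) and with no filter on low counts (adjusted p = 0.078).

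HXT7, a high-affinity transporter, rose at 10 min in both pre-treatments and stayed up longer in FK506. In ET, HXT7 stood at 150.2 and 125 at 0 min, 304 and 284 at 10 min, 111 and 123 at 30 min, then 111 and 122 at 60 min (scaled CPM). In FK506, HXT7 stood at 166 and 155 at 0 min, 461 and 463 at 10 min, 308 and 253 at 30 min, then 179.9 and 187 at 60 min. ET libraries at 30 and 60 min lay below both 0 min libraries, whereas FK506 libraries at 30 min were still above theirs. The increase at 10 min was 2.15-fold in ET (1.10 ± 0.09 (SE, adjusted p = 2.6e-08)) and 2.88-fold in FK506 (1.53 ± 0.09 (SE, adjusted p = 4.7e-10)) by limma. At 30 min the log2 change was -0.22 ± 0.10 (SE, adjusted p = 0.05) in ET and 0.80 ± 0.09 (SE, adjusted p = 8.0e-07) in FK506. The difference between pre-treatments was -1.02 ± 0.13 (SE, adjusted p = 3.4e-05) at 30 min and -0.43 ± 0.13 (SE, adjusted p = 0.011) at 60 min. The 60 min difference lost its call without ET replicate 1 at 0 min, ET replicate 1 at 60 min or FK506 replicate 2 at 60 min, with values of -0.35 to -0.31 and limma adjusted p of 0.065 to 0.099. The ET change at 60 min was small, -0.24 ± 0.10 (SE, adjusted p = 0.038), and lost its call in 5 of those 16 fits (ET replicate 1 at 0 min, either ET replicate at 30 min, ET replicate 1 at 60 min, or FK506 replicate 2 at 60 min), with values of -0.20 to -0.10 and limma adjusted p of 0.075 to 0.48. At 30 min in ET, HXT7 passed the threshold in 4 of them (ET replicate 2 at 0, 30 or 60 min, or FK506 replicate 1 at 30 min), at -0.32 to -0.22.

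HXT6 had few counts, 39 to 372 per library, and took 2.44% to 8.95% of the scaled CPM of HXT6 and HXT7 together. In ET, HXT6 stood at 3.76 and 3.61 at 0 min, 17.3 and 23.8 at 10 min, 8.11 and 8.30 at 30 min, then 6.81 and 7.53 at 60 min (scaled CPM). In FK506, HXT6 stood at 4.53 and 4.98 at 0 min, 30.7 and 33.7 at 10 min, 26.8 and 17.5 at 30 min, then 17.7 and 16.1 at 60 min. FK506 libraries were above ET libraries at every time, with the widest spread in FK506 at 30 min. The log2 change at 10 min was 2.45 ± 0.32 (SE, adjusted p = 5.2e-06) in ET and 2.75 ± 0.29 (SE, adjusted p = 4.0e-07) in FK506 by limma. At 60 min it was 0.95 ± 0.36 (SE, adjusted p = 0.026) in ET and 1.82 ± 0.30 (SE, adjusted p = 0.00014) in FK506. The ET call at 60 min was lost without either ET replicate at 0 min or ET replicate 2 at 60 min (values of 0.80 to 1.06, limma adjusted p of 0.071 to 0.14), and the ET call at 30 min (1.15 ± 0.35) without ET replicate 1 at 0 min or ET replicate 2 at 30 min (1.03 and 1.05, limma adjusted p of 0.068 and 0.052). The difference between pre-treatments was -1.02 ± 0.45 (interval -1.98 to -0.06, limma adjusted p = 0.1) at 30 min and -0.87 ± 0.46 (interval -1.85 to 0.11, limma adjusted p = 0.13) at 60 min. Both passed the threshold in DESeq2 and without FK506 replicate 2 at 30 min, where they were -1.41 and -0.84. The former also passed it in edgeR, and the latter without FK506 replicate 1 at 30 min (-0.86).

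Summing HXT6 and HXT7 into 1 feature gives a value that does not depend on how counted reads were split between them. It does not restore shared reads if these were left out. Because HXT7 held most of the pair's counts, the sum mostly follows HXT7 and is no separate check. The summed log2 change at 10 min was 1.16 ± 0.09 (SE, adjusted p = 1.6e-08) in ET and 1.58 ± 0.09 (SE, adjusted p = 3.5e-10) in FK506 by limma. At 30 min the sum was no longer called in ET, at -0.16 ± 0.10 (SE, adjusted p = 0.15), and was still raised in FK506, at 0.87 ± 0.09 (SE, adjusted p = 3.5e-07). At 60 min the value was -0.19 ± 0.10 (SE, adjusted p = 0.095) in ET and 0.28 ± 0.09 (SE, adjusted p = 0.031) in FK506, so that the ET call of HXT7 alone did not hold for the sum and an FK506 call appeared. The difference between pre-treatments was -1.03 ± 0.13 (SE, adjusted p = 3.5e-05) at 30 min and -0.47 ± 0.13 (SE, adjusted p = 0.0073) at 60 min.

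HXT5, whose product is made in cells that grow slowly or lack sugar, was the only transporter among the members that kept rising after 10 min in ET. In ET, HXT5 stood at 9.09 and 10.3 at 0 min, 28.5 and 24.6 at 10 min, 44.3 and 45.8 at 30 min, then 38.9 and 30.1 at 60 min (scaled CPM). In FK506, HXT5 stood at 8.61 and 10.2 at 0 min, 28.4 and 26.4 at 10 min, 25.3 and 20.8 at 30 min, then 11.8 and 12.5 at 60 min. The pre-treatments overlapped at 0 and 10 min and were separate at 30 and 60 min, with ET higher. The increase at 10 min was 2.74-fold in ET (1.45 ± 0.17 (SE, adjusted p = 1.4e-06)) and 2.93-fold in FK506 (1.55 ± 0.17 (SE, adjusted p = 7.9e-07)) by limma. In ET it reached 4.65-fold at 30 min (2.22 ± 0.16 (SE, adjusted p = 1.4e-09)) and was 3.53-fold at 60 min (1.82 ± 0.16 (SE, adjusted p = 2.3e-08)). In FK506 it was 2.46-fold at 30 min (1.30 ± 0.17 (SE, adjusted p = 6.4e-06)) and no longer passed the test at 60 min (0.38 ± 0.19 (SE, adjusted p = 0.15)). The difference between pre-treatments was 0.92 ± 0.23 (SE, adjusted p = 0.0067) at 30 min and 1.44 ± 0.25 (SE, adjusted p = 0.00012) at 60 min, the opposite direction to HXT2, HXT4 and HXT7. The 30 min difference lost its call without FK506 replicate 2 at 0 min, at 0.74 (adjusted p = 0.07) by limma. The decrease in ET from 30 to 60 min (-0.40 ± 0.11) lost its call without ET replicate 2 at 30 min (-0.33, limma adjusted p = 0.12) or at 60 min (-0.24, limma adjusted p = 0.22).

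SNF3, the sensor of low glucose, rose in both pre-treatments and stayed up in ET. In ET, SNF3 stood at 26.2 and 22.2 at 0 min, 44.5 and 44.1 at 10 min, 41.8 and 41.1 at 30 min, then 48.1 and 46.3 at 60 min (scaled CPM). In FK506, SNF3 stood at 29.9 and 30.8 at 0 min, 43.8 and 52.0 at 10 min, 31.2 and 30.6 at 30 min, then 31.5 and 32.0 at 60 min. ET libraries lay below FK506 libraries at 0 min and above them at 30 and 60 min. The log2 change in ET was 0.88 ± 0.11 (SE, adjusted p = 3.6e-06) at 10 min, 0.78 ± 0.11 (SE, adjusted p = 8.0e-06) at 30 min and 0.97 ± 0.11 (SE, adjusted p = 4.6e-07) at 60 min by limma. In FK506 SNF3 rose at 10 min, by 0.65 ± 0.11 (SE, adjusted p = 5.1e-05), and at 60 min its change was 0.07 ± 0.11 (SE, adjusted p = 0.71) with an interval of -0.17 to 0.30. The difference between pre-treatments was 0.75 ± 0.16 (SE, adjusted p = 0.0017) at 30 min and 0.90 ± 0.16 (SE, adjusted p = 0.0001) at 60 min. The 0 min levels enter this difference, and ET minus FK506 at 0 min was -0.33 ± 0.11 (SE, adjusted p = 0.15) for SNF3.

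RGT2, the sensor of high glucose, was called in none of the 14 comparisons. In ET, RGT2 stood at 51.6 and 51.1 at 0 min, 55.6 and 51.4 at 10 min, 53.0 and 51.4 at 30 min, then 56.9 and 51.9 at 60 min (scaled CPM). In FK506, RGT2 stood at 48.4 and 52.0 at 0 min, 47.5 and 49.3 at 10 min, 52.4 and 50.3 at 30 min, then 57.4 and 56.8 at 60 min. The 16 libraries spanned 47.5 to 57.4, and the pre-treatments overlapped at 0, 30 and 60 min. The log2 change at 60 min was 0.08 ± 0.08 (SE, adjusted p = 0.37) in ET and 0.19 ± 0.08 (SE, adjusted p = 0.088) in FK506 by limma, with intervals of -0.09 to 0.25 and 0.02 to 0.36. Unadjusted p was under 0.05 in 1 comparison, FK506 at 60 min against 0 min. When libraries were scaled by their raw totals instead, RGT2 passed the threshold in 5 comparisons, such as ET at 60 min (0.32 (adjusted p = 0.002) by limma), where that scaling moved the median of all genes by 0.23 from its TMM value. The ET minus FK506 difference was -0.01 ± 0.11 (SE, adjusted p = 0.95) at 30 min and -0.11 ± 0.11 (SE, adjusted p = 0.46) at 60 min, with intervals of -0.25 to 0.23 and -0.35 to 0.13.

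HXT1 to HXT5 were also summed per kb of coding length to follow their total and its composition, leaving out HXT6 and HXT7, whose levels per kb depend on how shared reads were counted. In ET the sum was 901 and 755 scaled CPM per kb at 0 min, 1397 and 1241 at 10 min, 588 and 533 at 30 min, then 444 and 474 at 60 min. In FK506 it was 919 and 835 at 0 min, 1677 and 1564 at 10 min, 737 and 667 at 30 min, then 758 and 718 at 60 min. The sum was highest at 10 min in each pre-treatment, and from 10 min on both FK506 libraries lay above both ET libraries. No test was run on the sum. HXT3 made up 61.5% ± 0.283 (SD, n = 2) of it in ET at 0 min, 36.7% ± 0.850 at 10 min and 64.0% ± 1.61 at 60 min. HXT4 made up 17.6% ± 0.768 at 0 min, 45.1% ± 0.0331 at 10 min and 25.1% ± 0.409 at 60 min in ET, and 19.8% ± 1.32, 46.8% ± 0.535 and 30.9% ± 0.481 in FK506. The HXT4 share exceeded that of HXT3 in each of the 4 libraries at 10 min. HXT2 made up 3.74% ± 0.283 of the sum at 60 min in ET and 9.21% ± 0.622 in FK506, and HXT5 made up 4.25% ± 0.959 and 0.929% ± 0.0750. With HXT6 and HXT7 as counted added, the sums ranged from 512 to 1964, and they are too low by an unknown amount if shared reads were left out of the counts.

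**Figure D4:**
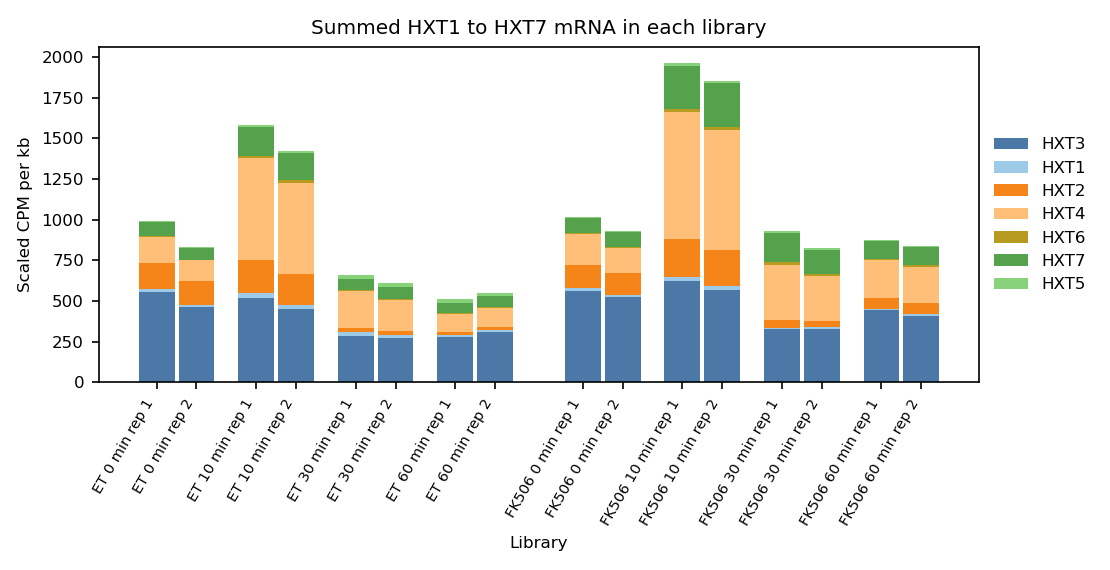
Stacked scaled CPM per kb (vertical axis from 0) of HXT1 to HXT7 in each of the 16 libraries, with 1 bar per library and 1 colour per gene, where HXT6 and HXT7 are as counted and may be too low. The tallest bars are the 10 min libraries, from 1421 to 1964, and the shortest are ET at 60 min, at 512 and 549.8.

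Patterns were compared by Pearson's r of log2(scaled CPM + 1) over the 16 libraries, which share time points, pre-treatments and scaling, so r is given as a description. Among the members, the most alike were HXT2 and HXT3 (r = 0.94), HXT4 and HXT7 (0.93), HXT6 and HXT7 (0.85, with near-identical sequences), HXT4 and HXT6 (0.84), and HXT5 and SNF3 (0.80). HXT3 and HXT5 were the least alike, at -0.61. Outside the members, 5373 genes with a mean of at least 100 counts were searched for the 3 with the highest r. For HXT1 these were MIG3 (0.96), YBL086C (0.94), RQC1 (0.92), of which MIG3 encodes a relative of the repressor Mig1. For HXT2 they were YRA1 (0.97), PTR2 (0.97), ADK1 (0.95), and for HXT3 IPT1 (0.94), FSH1 (0.94), PTR2 (0.94). Ptr2 is a peptide transporter and was near both. For HXT4 they were YDR133C (0.97), SUC2 (0.96), GAC1 (0.93), where SUC2 encodes invertase, an enzyme repressed by glucose. HXT7 had YDR133C (0.92), GAC1 (0.89), MTD1 (0.88), and HXT6 had HAP4 (0.90) and GAC1 (0.87) among its 3, with GAC1, a regulatory subunit of a phosphatase in glycogen synthesis, near all 3 of HXT4, HXT6 and HXT7. HXT5 was nearest to SET6 (0.98), RCN2 (0.98), LAM5 (0.98), where RCN2 encodes a regulator of CN. SNF3 was nearest to DBP1 (0.95), GSM1 (0.95), NNK1 (0.95). The highest r for RGT2 were lower, with LYS21 (0.79), RDS1 (0.75), MIR1 (0.74).

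The genes of signalling from the sensors to Rgt1, with RGT1 and the corepressor genes CYC8 and TUP1 included, did not move as 1 group. Of 8 tested, 3 were higher and 4 lower at 60 min against 0 min in ET (median log2 change -0.10, all genes 0.01), where 68.3% of all genes were called. In FK506, where 28.8% were called, 2 were higher and 2 lower (median 0.01, all genes -0.01). MTH1, the corepressor degraded when glucose is sensed, went from 35.0 ± 3.03 scaled CPM (SD, n = 2) at 0 min to 112 ± 11.0 at 10 min in ET, a log2 change of 1.68 ± 0.10 (SE, adjusted p = 4.3e-10) by limma, and the change in FK506 was 1.98 ± 0.09 (SE, adjusted p = 3.3e-11). At 60 min it was still raised in ET, at 1.12 ± 0.10 (SE, adjusted p = 2.0e-08) by limma. In FK506 MTH1 went from 42.9 ± 0.206 scaled CPM (SD, n = 2) at 0 min to 64.0 ± 2.29 at 60 min. Its paralog STD1 went the other way, with -0.70 ± 0.10 (SE, adjusted p = 9.7e-06) in ET at 60 min by limma. CYC8, which encodes a general corepressor used by Rgt1, fell from 179 ± 11.2 to 109 ± 11.9 scaled CPM in ET (-0.71 ± 0.07 (SE, adjusted p = 3.9e-08) by limma), and its FK506 value was -0.05 ± 0.06 (SE, adjusted p = 0.65). YCK1 rose slightly in ET (0.18 ± 0.06 (SE, adjusted p = 0.013) by limma), and RGT1 itself had -0.01 ± 0.07 (SE, adjusted p = 0.88) in ET at 60 min.

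In the Snf1 and Mig1 branch, 4 of 13 genes were higher and 3 lower at 60 min in ET (median log2 change 0.00096, all genes 0.01), and none was higher and 3 were lower in FK506 (median -0.06, all genes -0.01). These 7 and 3 of 13 are shares below the 68.3% and 28.8% of all genes called. TOS3, a kinase that activates Snf1, and SIP2, a subunit of the Snf1 complex, rose by 0.81 ± 0.10 (SE, adjusted p = 8.1e-07) and 0.70 ± 0.10 (SE, adjusted p = 4.8e-06) in ET by limma. MIG1 was lower, from 75.4 ± 5.72 scaled CPM (SD, n = 2) at 0 min to 52.8 ± 0.143 at 60 min (-0.51 ± 0.11 (SE, adjusted p = 0.00035) by limma), as was SNF4, the activating subunit of the complex (-0.31 ± 0.07 (SE, adjusted p = 0.00092)). The ET minus FK506 difference for MIG1 did not pass the test at 60 min (-0.32 ± 0.15 (SE, adjusted p = 0.081) by limma). At 10 min MIG1 stood at 49.8 ± 1.27 scaled CPM in ET and 83.1 ± 1.31 in FK506, where it was 76.1 ± 7.27 at 0 min. None of the 13 genes was called for the difference at 10 min. The 3 genes lower in FK506 at 60 min were MIG2 (-0.46 ± 0.10 (SE, adjusted p = 0.0025)), MIG3 (-0.57 ± 0.14 (SE, adjusted p = 0.0041)) and SNF4 (-0.28 ± 0.07 (SE, adjusted p = 0.0072)) by limma.

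Genes for the enzymes that phosphorylate hexose inside the cell rose at 10 min in both pre-treatments. At 10 min 4 of 4 were higher in ET (median log2 change 2.05, all genes -0.03) and 4 of 4 in FK506 (median 1.76, all genes -0.03), where 58.5% and 54.6% of all genes were called in either direction. HXK1 (hexokinase 1) went from 506 ± 5.76 scaled CPM (SD, n = 2) at 0 min to 2552 ± 31.0 at 60 min in ET, and GLK1 (glucokinase) from 586 ± 53.4 to 3172 ± 234. Their log2 changes were 2.33 ± 0.08 (SE, adjusted p = 5.6e-14) and 2.44 ± 0.10 (SE, adjusted p = 4.1e-13) by limma, against 0.82 ± 0.08 (SE, adjusted p = 4.7e-07) and 0.87 ± 0.10 (SE, adjusted p = 2.4e-06) in FK506. EMI2, a paralog of GLK1, rose by 1.08 ± 0.11 (SE, adjusted p = 8.8e-08) in ET by limma. HXK2, the main hexokinase in glucose medium, was lower at 60 min in ET, at -0.71 ± 0.04 (SE, adjusted p = 4.8e-11) by limma. In FK506 HXK2 went from 3359 ± 53.5 scaled CPM (SD, n = 2) at 0 min to 2818 ± 37.5 at 60 min. These genes already differed before CaCl2, and 3 of the 4 were lower in ET than in FK506 at 0 min: HXK1 (-0.58 ± 0.08 (SE, adjusted p = 0.0012)), GLK1 (-0.51 ± 0.10 (SE, adjusted p = 0.015)) and EMI2 (-0.44 ± 0.10 (SE, adjusted p = 0.043)) by limma.

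Of the other sugar transporter genes, 14 of 15 were tested, since HXT16 had 0 counts in every library. How shared reads were counted is not given, so the 0 does not show that HXT16 was silent. At 10 min 4 were higher and 1 lower in ET (median log2 change 0.03, all genes -0.03, 58.5% of all genes called). In FK506 4 were higher and none lower then (median 0.20, all genes -0.03, 54.6% called). GAL2 went from 7.98 ± 1.03 scaled CPM (SD, n = 2) at 0 min to 116 ± 4.83 at 10 min in ET. Its FK506 values were 7.82 ± 1.97 and 135 ± 13.2. At 60 min 7 were higher and 2 lower in ET (median log2 change 0.52, all genes 0.01), and 3 were higher and none lower in FK506 (median 0.11, all genes -0.01). These 9 and 3 of 14 are shares close to or below the 68.3% and 28.8% of all genes called. Reads of HXT13, HXT15 and HXT17, and of HXT9, HXT11 and HXT12, can be shared between near-identical copies, so these values are uncertain. HXT10 went from 0.738 ± 0.00488 scaled CPM (SD, n = 2) to 2.37 ± 0.277 in ET (1.63 ± 0.45 (SE, adjusted p = 0.0038) by limma), and HXT9 from 4.34 ± 0.811 to 7.89 ± 0.625 (0.87 ± 0.22 (SE, adjusted p = 0.0019)). HXT13 and HXT17 were lower, at -0.67 ± 0.25 (SE, adjusted p = 0.025) and -0.49 ± 0.21 (SE, adjusted p = 0.049) by limma. The 3 higher in FK506 were HXT9, HXT11 and HXT12. Of 7 genes of the Rsp5 ubiquitin ligase and its adaptors, which remove transporters from the plasma membrane, 5 were higher and 1 lower at 60 min in ET (median 0.37, all genes 0.01, 68.3% of all genes called), and 1 was higher and none lower in FK506 (median -0.02, all genes -0.01, 28.8% called). CSR2 and ROG3 rose in ET, by 1.14 ± 0.13 (SE, adjusted p = 5.2e-07) and 0.72 ± 0.09 (SE, adjusted p = 1.9e-06) by limma, and ROG3 was the gene higher in FK506. BUL2 was lower (-0.31 ± 0.06 (SE, adjusted p = 0.00025)), and the ligase gene RSP5 had 0.03 ± 0.05 (SE, adjusted p = 0.65) by limma.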

How the data were processed

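Gene-level read counts were analysed for 16 rRNA-depleted, strand-specific RNA-seq libraries in 8 groups of 2. The counts were deposited by the authors as a table of 7126 features, neither scaled nor pooled, of which 329 were 0 in every library. The submitters' processing notes name TopHat2 2.1.1, featureCounts from Subread 1.5.3 and sacCer3, whereas the study's methods name HTSeq for counting. The strand setting and the treatment of reads that map to several places are not given in the sources used here, which bears on HXT6 and HXT7.

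Groups and replicate numbers came from the sample labels. Counts were filtered with filterByExpr by group, which left 6206 genes, and scaled by TMM (edgeR 4.0.16). One limma 3.58.1 voom model (R 4.3.3) was fitted to the 16 libraries with terms for group and replicate number, as the study's methods have condition and batch. The correlation was taken within a time course (-0.12, duplicateCorrelation), whereas the study estimated it within condition and genotype, and the fit had 7 residual degrees of freedom. Replicate number was taken as the batch that the methods do not define. The 14 comparisons were each adjusted by Benjamini-Hochberg over all genes tested. Confidence intervals (95%) and SEs are from limma, and all log2 changes are those of this model. Scaled CPM are counts on the TMM-scaled totals. Intervals, and the floor of 3 counts, cover counting error or the spread between these libraries only. The procedure was also run on simulated data. The outcome of that run is not given here, so no conclusion about the calls in these libraries is drawn from it.

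The members and gene lists were chosen with earlier results of these data known. From each list, the genes named were those with the 2 highest and 2 lowest log2 changes at 60 min in ET among genes with a mean of at least 10 counts, any others needed for a small count, and the 3 genes most alike to each member. One of those for HXT6 is not reported here. RGT1 and GAL2 were named after their values were seen. Sequences and positions are from RefSeq build R64, in which 6048 features matched by systematic name. Alternatives were edgeR's quasi-likelihood test, DESeq2 1.42.0, no replicate block, no correlation, RLE scaling, raw totals, other filters, HXT6 and HXT7 summed, and each library left out.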

Additional observations from a re-analysis of the deposited data

Results flagged for a closer look

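The 13 results here are members whose change from 0 min differed between ET and FK506 by the limma test of the difference itself (ET minus FK506, log2, adjusted p under 0.05).

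At 30 min the difference was 0.82 for HXT1, 0.92 for HXT5 and 0.75 for SNF3, and it was -0.75 for HXT2, -0.31 for HXT4 and -1.02 for HXT7. At 60 min it was 0.65 for HXT1, 1.44 for HXT5 and 0.90 for SNF3, and it was -2.07 for HXT2, -0.45 for HXT3, -0.73 for HXT4 and -0.43 for HXT7. The values for HXT1, HXT2, HXT3, HXT4, HXT5 and SNF3 at 60 min were called in every fit with 1 library left out, whereas HXT4 at 30 min lost its call in 8 of 16 such fits, HXT7 at 60 min in 3 and HXT5 at 30 min in 1. HXT2 is the one member whose pre-treatments moved in opposite directions between 30 and 60 min with both changes called.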

How the results depend on the processing

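Of 14 counts of members called, 12 stayed within 1.5 times their value under all 25 alternatives. The count for ET at 60 min against 0 min was 8 and ranged from 5 (without ET replicate 1 at 0 min) to 8 with 1 library left out. The count for FK506 at 60 min against 0 min was 5 and became 8 with raw library totals, where HXT5, HXT7 and RGT2 were added. Among the members' single values, 3059 kept their direction and side of the threshold, 50 lost a call and 23 gained one. In 33 of the 3059 a value called in neither fit changed sign, and no called value reversed.

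Raw totals moved the median of all genes by 0.20 (ET) and 0.20 (FK506) at 30 min and by 0.23 and 0.12 at 60 min on the log2 scale, relative to TMM. The share of higher among all calls then went from 48.4% to 62.9% (ET) and from 47.1% to 71.1% (FK506) at 30 min, from 49.2% to 65.9% and from 45.5% to 73.5% at 60 min, and from 46.2% to 56.6% for ET minus FK506 at 60 min. It also went from 47.0% to 67.7% (ET) and from 48.7% to 74.2% (FK506) for 30 against 10 min, from 47.6% to 58.8% and from 56.4% to 42.0% for 60 against 30 min and from 57.7% to 35.7% between pre-treatments at 0 min, and the difference at 10 min went from 1 of 5 calls to 2 of 6. The ET decreases of HXT1, HXT4 and HXT7 at 60 min were not called with raw totals (-0.07, -0.10 and -0.0023), nor was the ET minus FK506 difference of HXT7 at 60 min (-0.32, limma adjusted p = 0.055) or of HXT4 at 30 min (-0.31, limma adjusted p = 0.055). HXT1 was then not called in FK506 at 30 min (-0.23, limma adjusted p = 0.13) or in ET from 10 to 30 min (-0.22, limma adjusted p = 0.068). With no filter on low counts, the HXT4 difference at 30 min (-0.29, limma adjusted p = 0.078) and the ET change of HXT7 at 60 min (-0.20, limma adjusted p = 0.091) were not called. In ET, DESeq2 did not call HXT1 at 60 min (-0.30, DESeq2 adjusted p = 0.059) or HXT5 from 30 to 60 min (-0.39, DESeq2 adjusted p = 0.062). HXT7 in ET at 30 min was called by edgeR (-0.22, edgeR adjusted p = 0.043) and without the correlation (-0.22, limma adjusted p = 0.045).

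Counts over all genes that moved by over 1.5 times were those for ET against FK506 at 0 min (97, from 9 to 206 with 1 library left out, 60 in edgeR, 34 without the replicate block), the difference at 10 min (5, from 0 to 11 with 1 library left out, 8 in edgeR and without the correlation, 18 in DESeq2, 3 with no filter) and ET at 60 against 30 min (1272, and 745 without ET replicate 1 at 30 min).

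Same-numbered ET and FK506 libraries deviated together (correlation of deviations 0.38, 0.44, 0.22 and 0.36 at 0, 10, 30 and 60 min), but there are 2 numbers and the labels name no shared batch, so the numbers are not shown to pair the samples. The fit without the replicate block changed 1 member's call, HXT4 at 30 min (ET minus FK506, -0.31, limma adjusted p = 0.15).

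Steps between later times also lost calls with 1 library left out. HXT1 from 10 to 30 min in ET was then -0.30 without ET replicate 1 at 10 min and -0.29 without ET replicate 2 at 30 min, HXT1 from 30 to 60 min in FK506 was -0.35 without FK506 replicate 2 at 30 min and -0.40 without replicate 1 at 60 min, and HXT6 from 10 to 30 min in FK506 was -0.52 and -0.18 without FK506 replicate 2 at 10 or 30 min. Depth limits HXT6 most among the members, with 39 counts in its lowest library. When 1 library of a group is left out, the other is assumed to vary like the rest.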
